A study of Mus musculus with 54 samples.

Results

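The 10 genes described here are the transcription factor genes Eomes, Elf5, Tfap2a, Tfap2c, Gata2, Gata3 and Hand1 and the keratin genes Krt7, Krt8 and Krt18, which are known for their part in the trophectoderm and its derivatives. They were taken by name from a list drawn up with earlier results of these data known, and each matched 1 of the 55487 Ensembl gene IDs counted. QuantSeq, a method that reads each transcript close to its polyadenylated 3′ end, was used on 54 libraries from mouse embryonic stem cells and the cells they became under retinoic acid. These libraries form 18 groups of 3. In the Ezh2 series, all 3 lines were Ezh1-/-:Ezh2-/- stem cells, with 129P2/Ola as the strain of origin, that carried an empty PiggyBac vector (EV), PiggyBac-Ezh2 (WT), or PiggyBac-Ezh2 with the substitutions K510R, K514R and K515R (amKR). In the Suz12 series, all 3 lines were SUZ12-/- stem cells that carried an empty PiggyBac vector (EV), PiggyBac-SUZ12 (WT), or PiggyBac-SUZ12-deltadim (ddim). WT therefore denotes knockout cells with a returned gene, not unmodified cells. Each line was sampled on day 0 in serum medium with LIF, CHIR99021 and PD0325901, and after 1 and 4 days with 0.1 µM retinoic acid in place of these. Each genotype was 1 line, so that genotype and line cannot be told apart. The labels do not say whether the 3 libraries of a group were separate cultures, and the p-values measure the spread between these libraries, which may be technical.

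The trophectoderm is the outer epithelium of the blastocyst and gives rise to the placenta. Eomes, Elf5, the AP-2 factor Tfap2c and the GATA factors act in a network, downstream of Tead4 and beside Cdx2, that sets up and maintains trophoblast stem cells, and Krt8 and Krt18 form the first keratin filaments of the embryo. None of these genes is restricted to that lineage, since simple epithelia, surface ectoderm, extraembryonic endoderm, neural crest, mesoderm or blood also use some of them. Polycomb repressive complex 2 (PRC2), whose catalytic subunit is Ezh2 or Ezh1 and whose core also contains Suz12 and Eed, methylates histone H3 and holds many developmental genes silent in stem cells.

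Each library of the Ezh2 series held between 4223028 and 5111007 counts assigned to genes, and each library of the Suz12 series between 3801446 and 4462441. Levels are given as CPM, that is, counts per gene relative to the TMM-scaled total of the library, and a level of 0 in all 3 libraries of a group would still allow up to 3 counts, or 0.193 to 0.269 CPM, for counting error alone. Pou5f1, the defining factor of pluripotent cells, and 7 other stem cell markers summed to between 2880 and 4720 CPM per library on day 0 and to between 67.7 and 158 CPM on day 4. On day 1 the series differed: the sum was between 2080 and 2310 CPM in WT of the Ezh2 series. In WT of the Suz12 series it was between 459 and 819 CPM on that day. Suz12 itself stood at 68.1 ± 4.97 CPM in EV, 439 ± 8.62 CPM in WT and 461 ± 26.9 CPM in ddim on day 0 of the Suz12 series (mean ± SD, n = 3). In the Ezh2 series the targeted genes did not follow the genotype labels so simply. On day 0 the EV libraries had 9.29 ± 1.58 CPM of Ezh1 against 0.148 ± 0.257 CPM in those of WT, and 183 ± 16.9 CPM of Ezh2 against 88.3 ± 0.66 CPM. Reads at the 3′ end do not check a deletion elsewhere in the gene, but the Ezh1 counts show that the line labelled EV differs from WT by more than the returned Ezh2. EV and WT of that series are named here as labelled, and each direction between them rests on those labels. Genes on chromosome 6 also had a median log2 difference of -0.27, -0.25 and -0.33 between EV and WT on days 0, 1 and 4, against 0.04, 0.07 and 0.01 over all genes. Between amKR and WT the medians of chromosome 6 were -0.18, -0.09 and -0.15 on these days, and those over all genes -0.02, 0.02 and 0. Gata2 is the only one of the 10 genes on that chromosome.

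Krt8 encodes a type II keratin and Krt18 its type I partner, while Krt7 is another type II keratin of simple epithelia. All 3 lie on chromosome 15 of the mm10 build, Krt7 at chr15:101411043-101430313 on the plus strand, Krt8 at chr15:101996698-102004482 on the minus strand and Krt18 at chr15:102028180-102032027 on the plus strand. The annotated starts of Krt8 and Krt18 are 23.7 kb apart, and that of Krt7 is 593.4 kb from the start of Krt8. Their promoters are shown because all 3 genes were higher on day 4 than on day 0 in the time course described next. Each runs from 250 bases before to 50 bases after the RefSeq start (build GRCm38.p6), at chr15:101412153-101412452 for Krt7, chr15:102004293-102004592 for Krt8 and chr15:102027966-102028265 for Krt18, and is written 5′ to 3′ on the strand of the gene. Capitals mark matches on either strand to an AP-2 motif (GCCNNNGGC), a GATA motif (AGATAA, or the same letters with T first, with G last, or both) or a TEAD motif (GGAATG).
Krt7: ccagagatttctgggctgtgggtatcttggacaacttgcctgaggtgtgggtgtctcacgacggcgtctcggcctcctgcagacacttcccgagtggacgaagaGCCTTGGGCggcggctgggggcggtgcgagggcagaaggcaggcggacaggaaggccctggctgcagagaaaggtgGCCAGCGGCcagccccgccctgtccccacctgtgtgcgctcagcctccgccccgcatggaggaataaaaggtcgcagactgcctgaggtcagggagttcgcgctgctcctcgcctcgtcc
Krt8: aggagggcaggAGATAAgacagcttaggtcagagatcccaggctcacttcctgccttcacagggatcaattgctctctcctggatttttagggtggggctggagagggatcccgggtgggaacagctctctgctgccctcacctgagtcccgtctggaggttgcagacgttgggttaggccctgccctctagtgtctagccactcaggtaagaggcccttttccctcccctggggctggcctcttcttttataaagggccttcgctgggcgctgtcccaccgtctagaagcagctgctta
Krt18: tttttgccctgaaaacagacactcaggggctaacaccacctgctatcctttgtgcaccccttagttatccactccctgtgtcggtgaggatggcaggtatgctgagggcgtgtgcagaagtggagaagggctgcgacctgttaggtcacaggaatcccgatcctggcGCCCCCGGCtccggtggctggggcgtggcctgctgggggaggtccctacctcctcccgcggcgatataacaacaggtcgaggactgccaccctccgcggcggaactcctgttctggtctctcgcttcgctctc
The Krt7 window holds 2 AP-2 matches, the Krt18 window 1 AP-2 match and the Krt8 window 1 GATA match. Of 32851 mouse promoter windows of the same length, 16.6% hold the AP-2 motif, 29.8% a GATA motif and 14.7% the TEAD motif. CpG dinucleotides number 21 in the Krt7 window, 17 in that of Krt18 and 6 in that of Krt8, against a median of 7 over all windows.

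The keratin genes showed the steepest rise of the listed genes over 4 days of retinoic acid in WT of the Suz12 series, and rose with Gata3 and Hand1 in WT of the Ezh2 series. Of the 9 genes with enough counts to test, 9 changed between day 0 and day 4 in WT of the Ezh2 series, where 57% of all 14086 genes tested did so by edgeR's quasi-likelihood test at an adjusted p under 0.05. Gata2, Gata3, Hand1, Krt7, Krt8 and Krt18 were higher and Eomes, Tfap2a and Tfap2c were lower, where 29.6% of all genes were higher and 27.5% lower. For WT of the Suz12 series 9 of 9 also changed, against 73.6% of 14442 genes, 37.1% higher and 36.5% lower, with Gata2, Gata3, Hand1, Krt7, Krt8 and Krt18 higher and Eomes, Tfap2a and Tfap2c lower. Over the 9 genes the median log2 change was 4.21 for the Ezh2 series and 1.48 for the other, beside 0.013 and -0.013 over all genes. By single steps, 9 of 9 changed from day 0 to day 1 and 7 of 9 from day 1 to day 4 in WT of the Ezh2 series, where 46.5% and 57.4% of all genes did. The corresponding counts in WT of the Suz12 series were 8 and 8 of 9, where 61.9% and 57.7% of all genes did. In these bulk samples, fewer cells of a type and less RNA per cell cannot be told apart.

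Krt18 was counted at 5.12, 7.51 and 6.56 CPM on day 0, 33.3, 22.6 and 32.1 CPM on day 1 and 494, 540 and 504 CPM on day 4 in WT of the Ezh2 series. The 3 days did not overlap, and the log2 change from day 0 to day 4 was 6.32 ± 0.22 (SE, adjusted p = 4.35e-20). Its partner Krt8 went from 3.78, 7.05 and 3.62 CPM through 16.4, 18.3 and 12.6 CPM to 260, 253 and 199 CPM, a log2 change of 5.62 ± 0.19. Both genes had already risen on day 1, by a log2 change of 2.19 ± 0.23 for Krt18 and 1.71 ± 0.22 for Krt8. Krt7 did not share this early step: its values were 0.89, 2.73 and 1.13 CPM on day 0, 0.899, 0.215 and 0.449 CPM on day 1 and 32.2, 30.4 and 26.6 CPM on day 4. All of its rise fell between days 1 and 4, where the log2 change was 5.77 ± 0.36 (adjusted p = 3.38e-15). The lower level of Krt7 on day 1 than on day 0 was called at -1.56 (adjusted p = 0.0286), but the libraries overlapped and the call was lost without library 2 of day 0 (-0.93, adjusted p = 0.284), library 2 of day 1 (adjusted p = 0.127) or library 3 of day 1 (adjusted p = 0.0754).

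On the log2 scale, the keratins rose mostly within the first day in WT of the Suz12 series, although Krt7 gained more CPM after it. Krt8 was at 15.6, 12.8 and 17.3 CPM on day 0, 174, 188 and 184 CPM on day 1 and 345, 378 and 333 CPM on day 4. Krt18 went from 10.7, 11.8 and 16.2 CPM through 267, 230 and 212 CPM to 295, 343 and 319 CPM. Krt7 went from 1.88, 2.94 and 0.531 CPM through 35.6, 29.8 and 23.4 CPM to 72.5, 83.2 and 85.8 CPM. Each keratin was higher in every day 1 library than in any day 0 library, with log2 changes of 4.03 ± 0.26 for Krt7, 3.58 ± 0.12 for Krt8 and 4.19 ± 0.20 for Krt18 over that day. From day 1 to day 4 the changes were smaller, at 1.44 ± 0.13, 0.95 ± 0.08 and 0.43 ± 0.14, and all 3 passed the test. Markers of other epithelia moved as well: the summed level of 12 extraembryonic endoderm markers rose from between 22.2 and 29.5 CPM on day 0 to between 933 and 1010 CPM on day 1 in WT of the Suz12 series, whereas in WT of the Ezh2 series it was between 113 and 131 CPM on day 0, between 25 and 31.4 CPM on day 1 and between 1690 and 1990 CPM on day 4. Their part in the keratin levels was not tested.

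**Figure D1:**
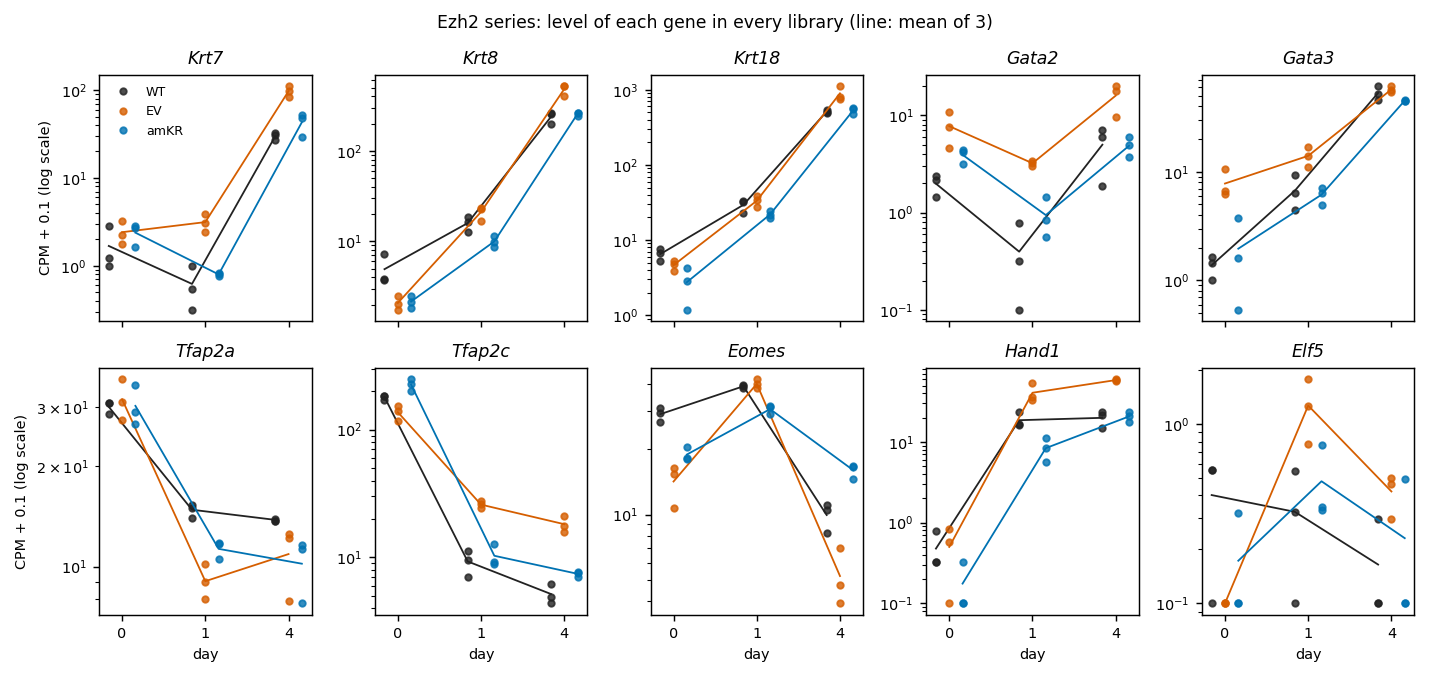
CPM of each of the 10 genes in the Ezh2 series by day (equal spacing; log axis of CPM + 0.1), with a point per library and a line through the mean of 3 libraries for WT (black), EV (orange) and amKR (blue). Krt18 rises in WT from 5.12 to 7.51 CPM on day 0 to 494 to 540 CPM on day 4, and Tfap2c falls from 171 to 185 CPM to 4.27 to 6.11 CPM.

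**Figure D2:**
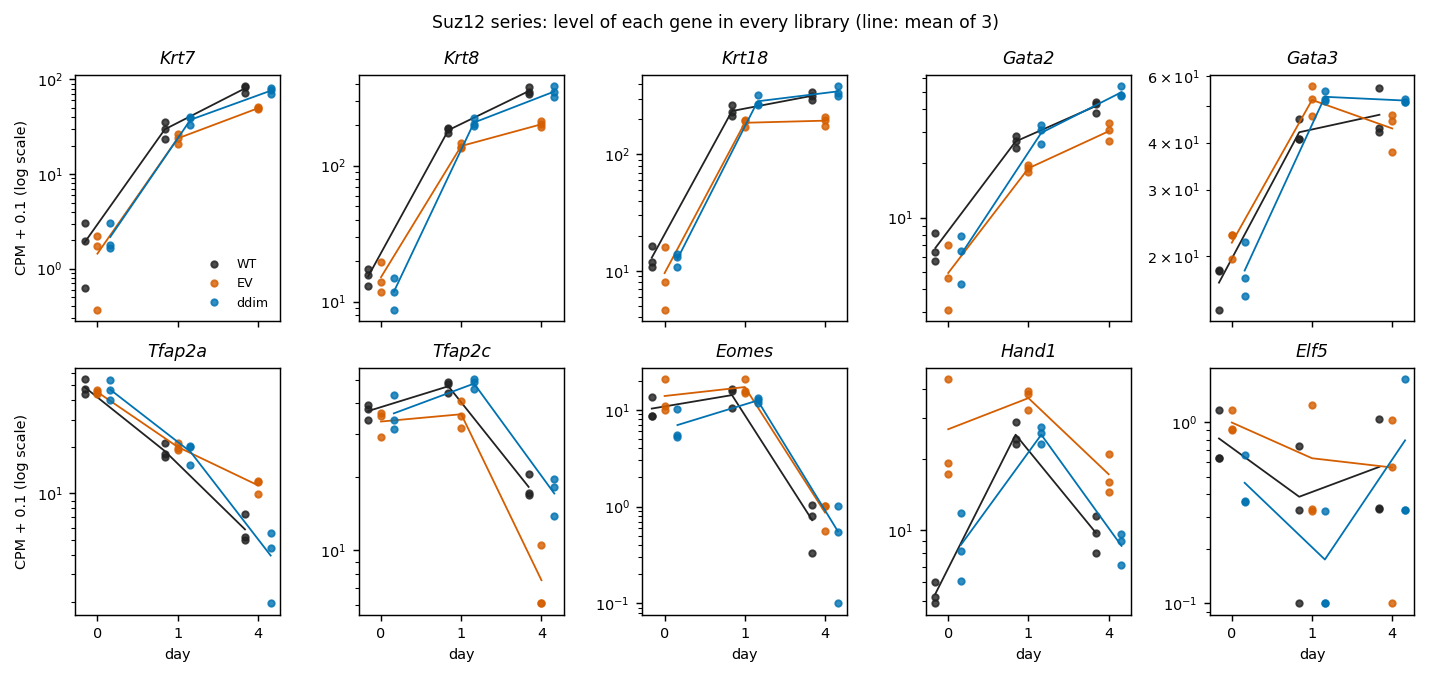
The same display for the Suz12 series, with WT in black, EV in orange and ddim in blue. Krt8 in WT reaches 174 to 188 CPM on day 1 and 333 to 378 CPM on day 4, where ddim is at 194 to 222 CPM and 318 to 386 CPM.

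The GATA factors are zinc finger regulators, Gata3 of trophectoderm and later of many epithelia, and Gata2 of trophoblast giant cells and blood progenitors. Gata3 lies at chr2:9857078-9890034 on the minus strand and Gata2 at chr6:88193891-88207032 on the plus strand. Their RefSeq promoter windows, at chr2:9878551-9878850 on the minus strand for Gata3 and chr6:88193641-88193940 on the plus strand for the upstream start of Gata2, are shown because both genes differed between EV and WT in undifferentiated cells of the Ezh2 series.
Gata2: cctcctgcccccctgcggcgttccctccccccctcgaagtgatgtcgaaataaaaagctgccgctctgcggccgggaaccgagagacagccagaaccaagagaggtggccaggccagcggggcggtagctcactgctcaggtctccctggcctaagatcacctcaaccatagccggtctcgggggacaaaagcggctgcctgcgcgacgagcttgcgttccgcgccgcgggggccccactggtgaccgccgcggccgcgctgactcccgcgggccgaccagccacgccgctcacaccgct
Gata3: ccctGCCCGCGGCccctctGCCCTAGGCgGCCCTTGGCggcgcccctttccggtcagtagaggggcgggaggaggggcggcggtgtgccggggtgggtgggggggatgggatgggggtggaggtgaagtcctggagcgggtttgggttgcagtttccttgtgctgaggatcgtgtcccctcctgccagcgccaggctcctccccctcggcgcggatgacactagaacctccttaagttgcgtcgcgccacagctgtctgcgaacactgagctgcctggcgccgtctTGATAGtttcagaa
The Gata3 window holds 3 AP-2 matches and 1 GATA match and has 22 CpG dinucleotides, and the Gata2 window holds no match to the 3 motifs and has 32 CpG dinucleotides, more than 90.5% of all windows. A second RefSeq start of Gata2, with its window at chr6:88198414-88198713, has 1 AP-2 match, 1 TEAD match and 29 CpG dinucleotides.

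Gata3 rose on both steps in WT of the Ezh2 series, from 1.56, 1.36 and 0.904 CPM on day 0 through 6.29, 4.31 and 9.19 CPM to 61.4, 45.5 and 52 CPM on day 4, with no overlap between days and a log2 change of 5.35 ± 0.32 over 4 days. Gata3 started higher in WT of the Suz12 series, at 18.3, 18.2 and 14.3 CPM, and reached 40.7, 46 and 40.8 CPM on day 1. Its day 4 libraries, at 42.6, 55.7 and 43.7 CPM, overlapped those of day 1, and the log2 change from day 1 to day 4 was 0.16 (95% interval -0.08 to 0.39). Gata2 dipped before it rose in WT of the Ezh2 series, from 1.34, 2.05 and 2.26 CPM to 0, 0.215 and 0.673 CPM and then 6.98, 1.77 and 5.89 CPM. Its day 4 libraries overlapped those of day 0, and the log2 change of 1.36 ± 0.46 (adjusted p = 0.0114) lost its call without library 1 of day 0 (adjusted p = 0.0559) or library 1 of day 4 (adjusted p = 0.0942). Gata2 of the Suz12 series rose on both steps in WT, from 8.06, 5.62 and 6.37 CPM through 28.3, 24.3 and 26.6 CPM to 42.6, 38.3 and 43.9 CPM.

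Hand1, a basic helix-loop-helix factor of trophoblast giant cells and of extraembryonic and heart mesoderm, lies at chr11:57828705-57832818. In WT of the Ezh2 series it went from 0.223, 0.682 and 0.226 CPM on day 0 to 16, 16.6 and 23.1 CPM on day 1, and was at 21.3, 14.6 and 23.6 CPM on day 4. The rise took place within the first day (log2 change 5.53 ± 0.43, adjusted p = 4.35e-12), and the day 1 and day 4 libraries overlapped. Hand1 peaked on day 1 in WT of the Suz12 series: it was at 5.91, 5.09 and 4.78 CPM, then 28.8, 24.3 and 23.2 CPM, then 7.92, 9.64 and 11.4 CPM. The fall from day 1 to day 4 had a log2 change of -1.39 ± 0.26 (adjusted p = 3.62e-05). The remaining difference between day 4 and day 0, 0.87 (adjusted p = 0.028), lost its call without library 2 or 3 of day 0 or library 2 or 3 of day 4 (adjusted p 0.0545 to 0.101).

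The AP-2 genes and Eomes ran the other way. Tfap2c, an AP-2 factor of trophoblast and of germ cells that naive stem cells also express, lies at chr2:172549593-172558622 and was at 185, 185 and 171 CPM on day 0 in WT of the Ezh2 series. It fell to 6.97, 11.2 and 9.42 CPM on day 1 and 4.84, 6.11 and 4.27 CPM on day 4 (log2 change over 4 days -5.14 ± 0.17, adjusted p = 3.25e-22). The Suz12 series did not show this early loss: Tfap2c was at 39.2, 38 and 34 CPM on day 0, 48, 48.8 and 43.9 CPM on day 1 and 17, 16.7 and 20.5 CPM on day 4 in WT. Every day 1 library was above every day 0 library there, but the log2 change of 0.34 (adjusted p = 0.0219) lost its call without library 3 of day 0 (adjusted p = 0.0966) or library 1 or 2 of day 1 (adjusted p = 0.0519 and 0.0625). Tfap2a, the AP-2 factor of neural crest and surface ectoderm at chr13:40715302-40738376, fell in WT of the Ezh2 series from 28.5, 30.7 and 30.8 CPM to 13.9, 14.9 and 15.2 CPM on day 1 and stayed at 13.6, 13.8 and 13.6 CPM on day 4. It fell on both steps in WT of the Suz12 series, from 43.8, 54.6 and 47.5 CPM through 17.1, 21.1 and 18 CPM to 7.22, 4.94 and 5.12 CPM.

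Eomes, a T-box factor that trophoblast stem cells need and that also marks early mesoderm and endoderm, lies at chr9:118478212-118486132. In WT of the Ezh2 series it was at 26.5, 30.9 and 29.2 CPM on day 0, 38, 39.2 and 39.5 CPM on day 1 and 8.14, 11 and 10.4 CPM on day 4. The day 1 libraries were the highest and the day 4 libraries the lowest, without overlap. The first step, 0.43 (adjusted p = 0.023), lost its call without library 1 of day 0 (adjusted p = 0.093) or library 2 or 3 of day 1 (adjusted p = 0.0534 and 0.0548), and the fall from day 1 to day 4 was -1.98 ± 0.17. For Eomes in WT of the Suz12 series the libraries went from 13.4, 8.56 and 8.5 CPM through 15.5, 16.4 and 10.3 CPM to 0.233, 0.94 and 0.698 CPM, so that almost none was left on day 4. Elf5, an ETS factor that locks in trophoblast fate, at chr2:103411688-103450989, was scarcely detected in any group. Its highest level was 1.17, 0.678 and 1.68 CPM in EV on day 1 of the Ezh2 series, 7 counts was the most in 1 library, and it was too low to be tested.

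All 9 genes tested changed by different amounts in the WT lines of the 2 series over 4 days, in a joint fit where 38.1% of 15371 genes did. The change of Tfap2c was 4.16 ± 0.24 log2 units less negative in the Suz12 series, whereas those of Hand1 (-4.70 ± 0.67), Gata3 (-3.81 ± 0.35), Eomes (-2.36 ± 0.51), Tfap2a (-1.89 ± 0.26), Krt18 (-1.64 ± 0.34) and Krt8 (-1.04 ± 0.25) were lower there. The differences for Gata2 (1.32, adjusted p = 0.0326) and Krt7 (1.31, adjusted p = 0.0499) were the least secure. That of Gata2 was lost without library 2 or 3 of WT on day 0 of either series or library 2 of WT on day 4 of the Ezh2 series (adjusted p 0.0527 to 0.125). That of Krt7 was lost without WT library 2 of day 0 (0.69, adjusted p = 0.476) or library 2 or 3 of day 4 in the Ezh2 series, or without WT library 1 or 3 of day 0 (0.88 without the latter) or library 2 or 3 of day 4 in the Suz12 series, with adjusted p from 0.0542 to 0.476. The series were built in different knockout lines, and line and series cannot be told apart.

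The other lines also raised their keratins over 4 days. In EV of the Ezh2 series 9 of 9 genes changed, where 60.8% of all genes did, with Krt8 (7.90 ± 0.22) and Krt18 (7.62 ± 0.23) rising furthest. Gata2 rose by 1.04 there, with overlapping libraries and a call lost without EV library 1 of day 4 (adjusted p = 0.0551) or library 3 of day 0 (adjusted p = 0.0681). In amKR 7 of 9 changed, where 59.9% of all genes did. The keratins (Krt18 7.64 ± 0.24, Krt8 6.94 ± 0.21, Krt7 4.22 ± 0.27), Gata3 and Hand1 were higher, Tfap2a and Tfap2c were lower, and Eomes (-0.25, interval -0.59 to 0.10) and Gata2 (0.31, interval -0.51 to 1.14) did not pass the test. In EV of the Suz12 series 9 of 9 changed, where 74.1% of all genes did, and in ddim 8 of 9, where 73.6% did. Hand1 was the gene that differed: it was lower on day 4 than on day 0 in EV (-0.64, adjusted p = 0.0183) and at -0.01 (interval -0.68 to 0.66) in ddim. The EV call for Hand1 was lost without library 3 of day 0 (-0.09, adjusted p = 0.695), library 1 of day 4 (adjusted p = 0.0771) or library 3 of day 4 (adjusted p = 0.0606), and in a fit of these 6 libraries alone (adjusted p = 0.248).

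**Figure D3:**
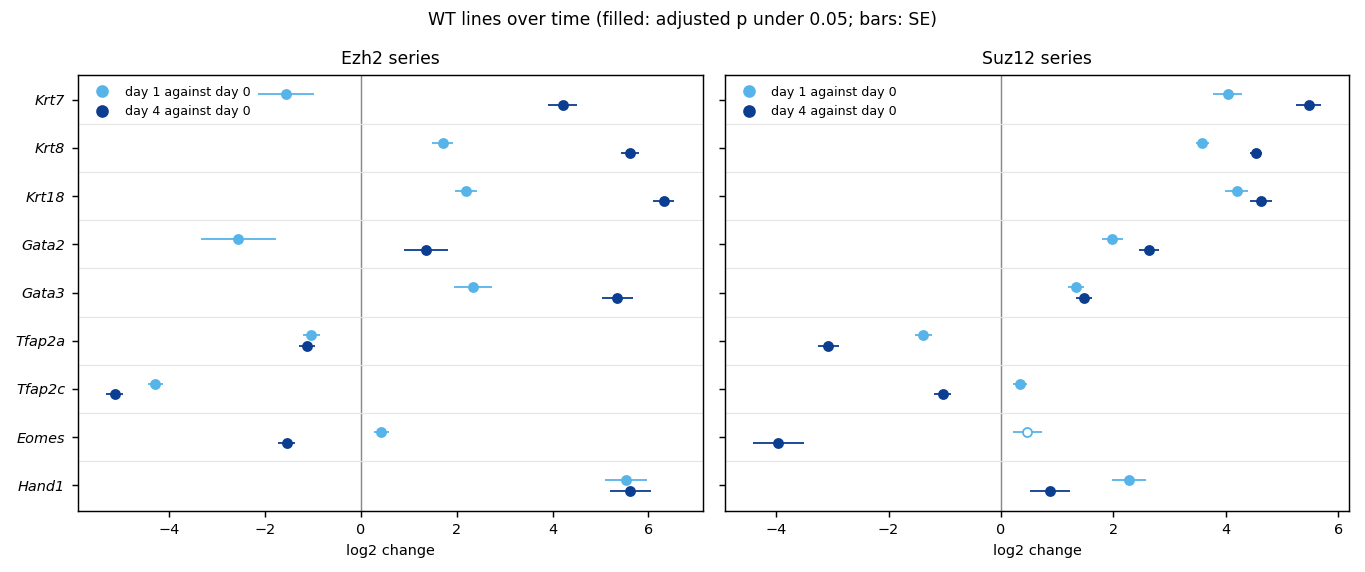
Log2 change of the 9 tested genes in WT of each series from day 0 to day 1 (light blue) and day 4 (dark blue), with bars of 1 SE and filled points where the adjusted p was under 0.05; the 2 panels have their own horizontal scales. Krt18 reaches 6.32 and Tfap2c -5.14 on day 4 in the Ezh2 series, and Krt7 reaches 5.47 and Eomes -3.96 in the Suz12 series.

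Before differentiation, EV cells of the Ezh2 series had more Gata2 and Gata3 RNA than WT cells and less Eomes, Tfap2c and Krt8 RNA. Of the 9 genes tested on day 0, 2 were higher and 3 lower, where 29.3% of all genes were called, 16.8% higher and 12.4% lower. Gata3 was at 6.58, 6.12 and 10.4 CPM in EV and 1.56, 1.36 and 0.904 CPM in WT, a log2 difference of 2.57 ± 0.40 (adjusted p = 1.08e-05). Gata2 was at 7.55, 10.8 and 4.47 CPM in EV and 1.34, 2.05 and 2.26 CPM in WT (2.00 ± 0.44, adjusted p = 0.000841). Every EV library was above every WT library for both GATA factors. The median shift of the Gata2 chromosome was downwards, and the cause of the Gata2 difference was not tested. Eomes was lower in EV, at 16.3, 10.6 and 15.3 CPM against 26.5, 30.9 and 29.2 CPM (-1.04 ± 0.17, adjusted p = 2.19e-05). Krt8 was lower at 1.95, 2.36 and 1.65 CPM against 3.78, 7.05 and 3.62 CPM (-1.27 ± 0.33, adjusted p = 0.00351), and lost its call without WT library 2 (-0.89, adjusted p = 0.0719). Tfap2c, at 116, 140 and 154 CPM in EV and 185, 185 and 171 CPM in WT, differed by -0.40 (adjusted p = 0.017), a call lost without EV library 1 (adjusted p = 0.12), WT library 1 (adjusted p = 0.0535) or WT library 2 (adjusted p = 0.0538).

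After 1 day of retinoic acid, EV had more RNA than WT for both GATA factors, Tfap2c, Hand1 and Krt7. On that day 5 of 9 genes were higher and 1, Tfap2a, was lower, where 20.9% of all genes were called, 13.2% higher and 7.64% lower. Tfap2c was at 24.3, 27.3 and 25.9 CPM in EV against 6.97, 11.2 and 9.42 CPM in WT, so that its day 0 order was turned round (1.49 ± 0.17, adjusted p = 5.36e-08). Krt7 was at 2.34, 2.94 and 3.83 CPM against 0.899, 0.215 and 0.449 CPM (2.49 ± 0.52), the WT libraries having 4, 1 and 2 counts. Hand1 was at 35.8, 32.8 and 53.4 CPM against 16, 16.6 and 23.1 CPM (1.13 ± 0.22). In each of these comparisons the lowest EV library was above the highest WT library. Gata2 was at 3.28, 2.94 and 3.11 CPM against 0, 0.215 and 0.673 CPM (3.28 ± 0.71), a difference taken against only a few WT counts, and Gata3 at 16.8, 13.8 and 11 CPM against 6.29, 4.31 and 9.19 CPM (1.07 ± 0.27). Krt8 and Krt18 did not pass the test on day 1, at 0.41 (adjusted p = 0.102, and 0.0434 without EV library 1) and 0.18 (adjusted p = 0.545). Tfap2a was at 10.1, 7.91 and 8.86 CPM in EV and 13.9, 14.9 and 15.2 CPM in WT (-0.71 ± 0.20, adjusted p = 0.00775). The extraembryonic endoderm markers moved with these genes on day 1: 10 of 12 were higher in EV, their sum was between 183 and 197 CPM in EV and between 25 and 31.4 CPM in WT, and 3 of the 12 had no count in WT against none in EV. The sum of 10 mesoderm and amnion markers went the other way, between 228 and 322 CPM in EV and between 508 and 614 CPM in WT. The part of these cell types in the values of the listed genes was not tested.

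On day 4 all 3 keratins were higher in EV, together with Tfap2c, Gata2 and Hand1, while Eomes was lower. These were 6 of 9 genes higher and 1 lower, where 17.8% of all genes were called, 9.62% higher and 8.2% lower, and their median log2 difference was 1.02, beside 0.01 over all genes. Krt8 was at 523, 519 and 400 CPM in EV and 260, 253 and 199 CPM in WT (1.02 ± 0.13, adjusted p = 7.6e-07). Krt18 was at 757, 1130 and 800 CPM against 494, 540 and 504 CPM (0.80 ± 0.15, adjusted p = 0.000296). Krt7 was at 97.6, 112 and 82.3 CPM against 32.2, 30.4 and 26.6 CPM (1.71 ± 0.19, adjusted p = 4.98e-08). All EV libraries lay above all WT libraries for the 3 keratins. Tfap2c was again higher in EV, at 17.5, 21 and 15.8 CPM against 4.84, 6.11 and 4.27 CPM (1.83 ± 0.19), and Hand1 was at 59.7, 58.3 and 56.9 CPM against 21.3, 14.6 and 23.6 CPM (1.56 ± 0.22). Gata2 was at 20, 9.6 and 17.7 CPM against 6.98, 1.77 and 5.89 CPM (1.68 ± 0.35). The Gata3 libraries overlapped, at 61.7, 53.8 and 55.9 CPM against 61.4, 45.5 and 52 CPM, and the difference of 0.11 had an interval of -0.31 to 0.52. Eomes was at 4.64, 3.8 and 6.89 CPM against 8.14, 11 and 10.4 CPM (-0.95, adjusted p = 0.000975, and 0.0512 in a fit of these 6 libraries alone).

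Markers of surface ectoderm were higher in EV beside the keratins on day 4. Their list itself holds the keratins Krt5 and Krt14, and Cldn4. These genes also stand in the lists of other keratins or junction genes read below, so that the lists are not separate evidence. Of 8 such markers, 6 could be tested and 6 were higher in EV, their sum was between 210 and 260 CPM in EV and between 80.6 and 85.8 CPM in WT, and 1 of the 8 had no count in WT. The extraembryonic endoderm markers, 2 higher and 2 lower of 12, summed to between 1210 and 1460 CPM in EV and between 1690 and 1990 CPM in WT. Over all genes of this comparison 9.62% were higher and 8.2% lower. The part of these cell types in the keratin levels was not tested. Between day 0 and day 4 the difference of EV from WT itself changed for 4 of 9 genes, where 12.4% of all genes did: it grew for Krt8 (2.28 ± 0.35), Tfap2c (2.23 ± 0.23) and Krt18 (1.30 ± 0.34) and shrank for Gata3 (-2.46 ± 0.45).

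**Figure D4:**
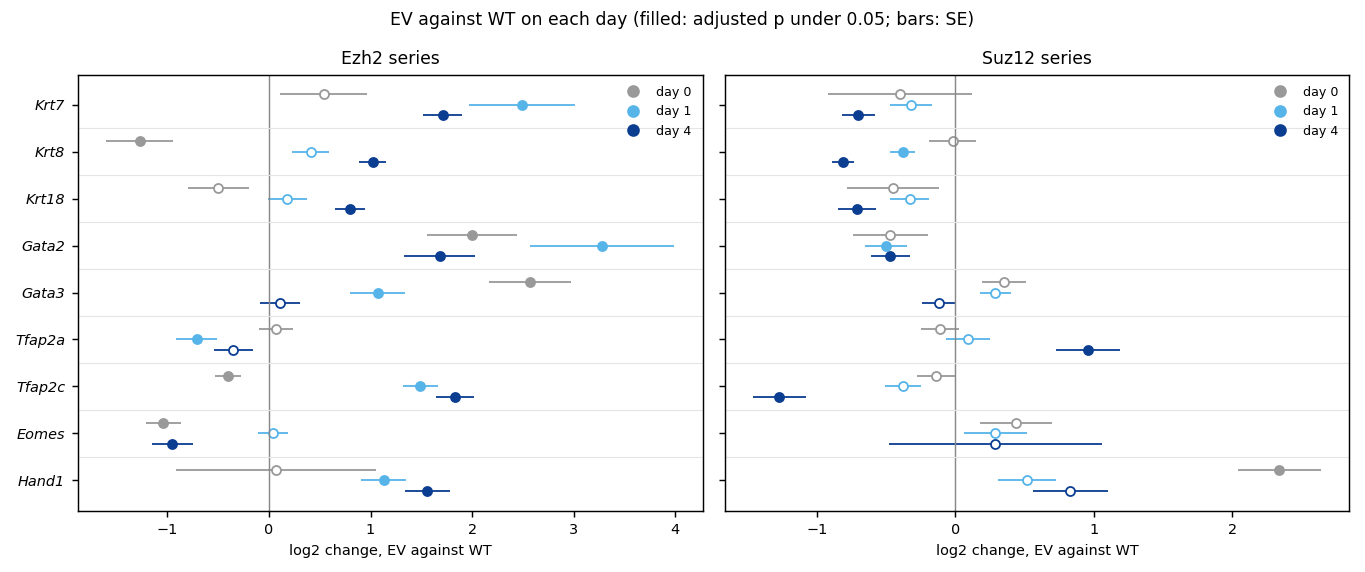
Log2 difference of EV from WT for the 9 tested genes on day 0 (grey), day 1 (light blue) and day 4 (dark blue) in the Ezh2 and the Suz12 series, with bars of 1 SE and filled points at an adjusted p under 0.05; the 2 panels have their own horizontal scales. Between the Ezh2 and Suz12 panels, Krt7 on day 4 goes from 1.71 to -0.70, and Tfap2c from 1.83 to -1.27.

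Cells with the substituted enzyme, amKR, differed from WT at 3 of 9 genes on day 0, all lower, where 4.48% of all genes were called, 2.44% higher and 2.04% lower. These were the keratin pair and Eomes. Krt8 was at 2.4, 2.04 and 1.73 CPM in amKR against 3.78, 7.05 and 3.62 CPM in WT (-1.22 ± 0.32, adjusted p = 0.0246), and Krt18 was at 4.15, 2.72 and 1.08 CPM against 5.12, 7.51 and 6.56 CPM (-1.26 ± 0.33, adjusted p = 0.0279). Eomes was at 17.9, 20.4 and 18.1 CPM against 26.5, 30.9 and 29.2 CPM (-0.62 ± 0.16, adjusted p = 0.0264). Although amKR and WT did not overlap for any of the 3, none of these calls held when single libraries were left out. The Eomes call was lost without amKR library 1, 2 or 3 or WT library 2 or 3 (adjusted p 0.0507 to 0.132), the Krt8 call without amKR library 1, 2 or 3 or WT library 2 (adjusted p 0.058 to 0.244), and the Krt18 call without amKR library 2 or 3 or WT library 2 or 3 (adjusted p 0.0643 to 0.154).

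On day 1 amKR and WT differed at 1 of 9 genes, Hand1, where 1.63% of all genes were called, 1.05% higher and 0.582% lower. Hand1 was at 8.34, 11 and 5.54 CPM in amKR and 16, 16.6 and 23.1 CPM in WT (-1.17 ± 0.26, adjusted p = 0.0154), and the call was lost without amKR library 1 or 3 or WT library 3 (adjusted p 0.0705 to 0.0997). The amKR libraries were all below those of WT, whereas those of EV were all above. On day 4 the gene called was Eomes, which was higher in amKR, at 14.5, 16.6 and 16.5 CPM against 8.14, 11 and 10.4 CPM (0.69 ± 0.18, adjusted p = 0.0368), where 1.71% of all genes were called, 1.22% higher and 0.49% lower. This call was lost on leaving out any 1 of the 6 libraries (adjusted p 0.0548 to 0.157). None of the keratins passed the test between amKR and WT on day 4. Krt8 was at 260, 264 and 243 CPM (difference 0.11, interval -0.16 to 0.38), Krt18 at 555, 573 and 475 CPM (0.06, interval -0.25 to 0.37) and Krt7 at 48.4, 51.3 and 29.1 CPM (0.53, interval 0.13 to 0.93, adjusted p = 0.227). The surface ectoderm markers summed to between 100 and 122 CPM in amKR on day 4, and 2 of 6 tested were higher than in WT. The change of the amKR difference between day 0 and day 4 passed the test for Eomes alone (1.30 ± 0.24, adjusted p = 0.0127), where 0.156% of all genes did. It was lost without WT library 1 of day 4 (adjusted p = 0.0552).

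Set against EV, amKR had more Tfap2c and less Gata3 RNA on day 0, 1 gene higher and 1 lower, where 17.5% of all genes were called, 6.4% higher and 11.1% lower. Tfap2c was at 248, 200 and 226 CPM in amKR (0.72 ± 0.13) and Gata3 at 0.437, 3.63 and 1.51 CPM (-2.05 ± 0.37). On day 1, 7 of 9 genes were lower in amKR than in EV and none was higher, where 14.7% of all genes were called, 5.35% higher and 9.4% lower. They included Hand1 (-2.30 ± 0.25), Krt7 (-2.08 ± 0.49), Tfap2c (-1.35 ± 0.17), Gata3 (-1.20 ± 0.28) and Krt8 (-1.08 ± 0.19). Of the other two, Gata2 (-1.84, adjusted p = 0.0292) lost its call without amKR library 1 or 2 or any EV library (adjusted p 0.0546 to 0.12), and Krt18 (-0.60, adjusted p = 0.0318) without amKR library 2 or 3 or EV library 1 or 3 (adjusted p 0.0802 to 0.202), and also in a fit of the 6 libraries alone (adjusted p = 0.053). On day 4, 6 genes were lower in amKR than in EV and Eomes was higher, where 10.8% of all genes were called, 5.27% higher and 5.54% lower. The lower genes were Gata2 (-1.72), Hand1 (-1.50), Tfap2c (-1.30), Krt7 (-1.18), Krt8 (-0.91) and Krt18 (-0.74), and Eomes differed by 1.63. These comparisons share the EV libraries with those of EV and WT, so that they are not separate evidence. They also share the limit of the EV line, whose Ezh1 counts on day 0 set it apart from WT.

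**Figure D5:**
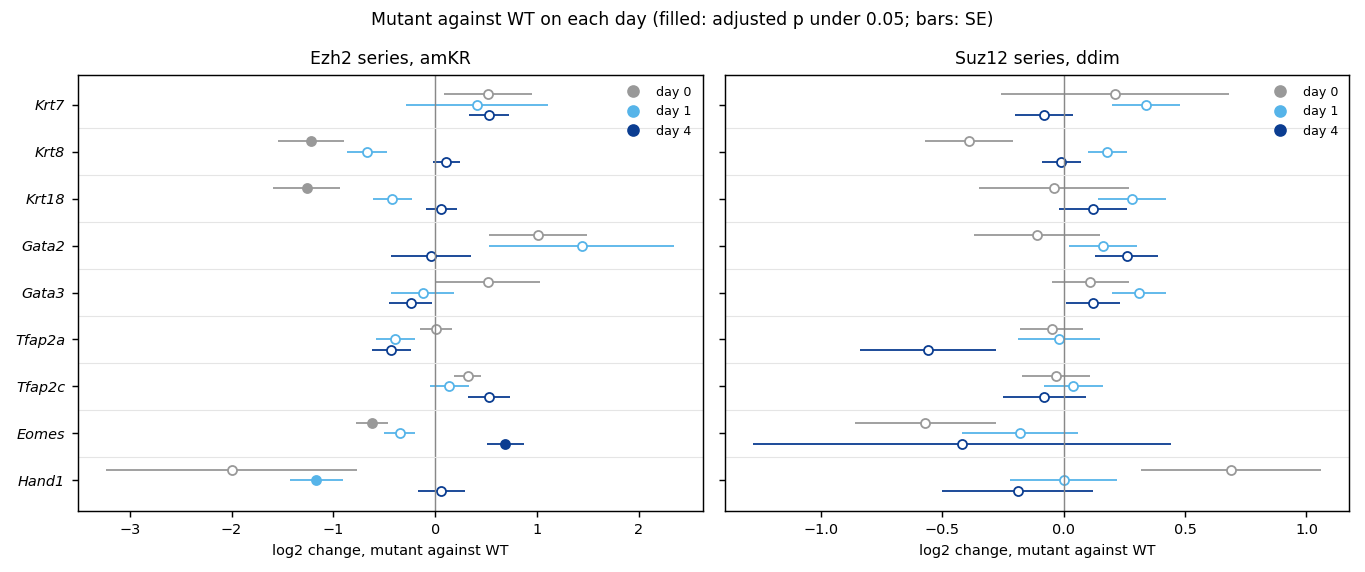
Log2 difference of amKR from WT (Ezh2 series) and of ddim from WT (Suz12 series) on day 0 (grey), day 1 (light blue) and day 4 (dark blue), with bars of 1 SE and filled points at an adjusted p under 0.05; the 2 panels have their own horizontal scales. The filled points are Eomes, Krt8 and Krt18 on day 0, Hand1 on day 1 and Eomes on day 4, all in amKR, and no point of ddim is filled.

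Undifferentiated EV cells of the Suz12 series differed from WT at 1 of 9 genes, Hand1, where 10.8% of all genes were called, 5.47% higher and 5.37% lower. Hand1 was at 17.3, 19.2 and 43.8 CPM in EV and 5.91, 5.09 and 4.78 CPM in WT (2.34 ± 0.30, adjusted p = 2.94e-06). EV library 3 was the highest at Hand1 and also at Eomes (20.5 CPM, against 10.9 and 9.88 CPM), Krt8 (19.5 CPM, against 11.7 and 13.9 CPM) and Krt18 (15.9 CPM, against 8 and 4.54 CPM). The summed level of 10 mesoderm and amnion markers ranged from 111 to 256 CPM over the EV libraries and from 108 to 158 CPM in WT, and its part in the Hand1 difference was not tested. The other genes of this day overlapped between EV and WT, apart from Gata3, which was at 22.7, 19.5 and 22.7 CPM against 18.3, 18.2 and 14.3 CPM (0.35, adjusted p = 0.147).

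On day 1 Gata2 and Krt8 were lower in EV than in WT, 2 of 9 genes where 7.91% of all genes were called, 3.86% higher and 4.05% lower. Krt8 was at 134, 147 and 137 CPM in EV and 174, 188 and 184 CPM in WT (-0.38 ± 0.09, adjusted p = 0.00174). Gata2 was at 18.8, 17.8 and 19.4 CPM against 28.3, 24.3 and 26.6 CPM (-0.50 ± 0.15, adjusted p = 0.0285). The libraries did not overlap for either gene, but the Gata2 call was lost without any 1 EV library or WT library 1 or 3 (adjusted p 0.0584 to 0.109).

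By day 4 the keratins were lower in EV than in WT of the Suz12 series, the opposite of their order in the Ezh2 series. Of 9 genes, 5 were lower and 1 was higher, where 7.64% of all genes were called, 3.85% higher and 3.79% lower, and the median log2 difference was -0.47, beside 0.001 over all genes. Krt8 was at 191, 201 and 211 CPM in EV and 345, 378 and 333 CPM in WT (-0.81 ± 0.08, adjusted p = 3.02e-11). Krt18 was at 177, 197 and 210 CPM against 295, 343 and 319 CPM (-0.71 ± 0.14, adjusted p = 0.00266). Krt7 was at 49.3, 48.5 and 50.8 CPM against 72.5, 83.2 and 85.8 CPM (-0.70 ± 0.12, adjusted p = 4.55e-05). No EV library reached the lowest WT library for any keratin. Tfap2c was at 5.99, 5.97 and 10.4 CPM against 17, 16.7 and 20.5 CPM (-1.27 ± 0.19, adjusted p = 1.96e-06). Gata2 was at 33.4, 26.4 and 30.5 CPM against 42.6, 38.3 and 43.9 CPM (-0.47, adjusted p = 0.0201), a call lost without EV library 2 or 3 or WT library 1 or 3 (adjusted p 0.054 to 0.143). Tfap2a was the higher gene, at 12, 9.88 and 11.8 CPM against 7.22, 4.94 and 5.12 CPM (0.96 ± 0.23, adjusted p = 0.0029). Hand1 was at 14.5, 21.1 and 15.9 CPM against 7.92, 9.64 and 11.4 CPM, and although the libraries did not overlap, the difference of 0.83 did not pass the test (adjusted p = 0.0625). It passed without the filter on low counts (adjusted p = 0.00124), by DESeq2 (adjusted p = 0.026) and in a fit of these 6 libraries alone (adjusted p = 0.000383). Surface ectoderm markers summed to between 119 and 128 CPM in EV and between 153 and 163 CPM in WT, with 1 of 7 lower, and extraembryonic endoderm markers to between 1410 and 1440 CPM and between 1610 and 1710 CPM, with 3 of 12 lower. Their part in the keratin levels was not tested.

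Between day 0 and day 4 the EV difference changed for 4 of 9 genes in the Suz12 series, where 6.91% of all genes did. It changed upwards for Tfap2a (1.07 ± 0.26) and downwards for Tfap2c (-1.13 ± 0.24), Krt8 (-0.79 ± 0.19) and Hand1 (-1.51 ± 0.43). The Krt8 change lost its call without EV library 3 of day 0 (-0.56, adjusted p = 0.0844). The Hand1 change lost its call without that library (-0.96, adjusted p = 0.0543), without EV library 1 or 3 of day 4, and without WT library 2 or 3 of day 0 or of day 4 (adjusted p 0.0543 to 0.0832), and in a fit of the compared libraries alone (adjusted p = 0.141).

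Between cells with the SUZ12-deltadim protein and WT, no difference passed the test at the 9 genes tested. On days 0, 1 and 4, 0 of 9 genes were called, where 0%, 0.0623% and 0.152% of all genes were. By edgeR at an unadjusted p under 0.05, 1 of the 9 passed on day 0 (Krt8), 3 on day 1 (Gata3, Krt7 and Krt8) and 1 on day 4 (Tfap2a), where 3.64%, 9.47% and 8.57% of all genes passed that threshold, and DESeq2 also called 0 of 9 on each day. Krt8 was at 11.7, 8.59 and 14.8 CPM in ddim on day 0, 222, 194 and 203 CPM on day 1 and 318, 386 and 346 CPM on day 4. Its differences from WT had intervals of -0.74 to -0.03, 0.02 to 0.35 and -0.17 to 0.15 log2 units on those days. For Krt18, at 316, 389 and 338 CPM on day 4, the interval was -0.16 to 0.41, and for Krt7, at 76.5, 81.6 and 69.9 CPM, it was -0.32 to 0.15. Gata2 was at 54, 47.9 and 47.3 CPM on day 4 (interval 0 to 0.51) and Gata3 at 51.6, 52 and 54.8 CPM on day 1 (0.09 to 0.54). Hand1 on day 0 was at 5.98, 8.05 and 11.7 CPM (interval -0.06 to 1.45). Intervals were widest for Eomes on day 4, at 0, 0.912 and 0.452 CPM in ddim (-2.15 to 1.30). The change of the ddim difference between days 0 and 4 was called for 0 of 9 genes, where 0% of all genes were called.

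Against EV, ddim differed at 2 of 9 genes on day 0, 5 on day 1 and 7 on day 4, where 11.7%, 6.28% and 11.4% of all genes were called. On day 0 Hand1 was lower (-1.65 ± 0.28, adjusted p = 0.000117, and 0.128 in a fit of these 6 libraries alone), and Eomes was lower at -1.01, with overlapping libraries and a call lost without EV library 3 (-0.61, adjusted p = 0.208) or ddim library 1 or 2 (adjusted p = 0.0737 and 0.0706). On day 1 Gata2 (0.66 ± 0.15), Krt7 (0.66 ± 0.15), Krt8 (0.57 ± 0.09), Krt18 (0.61 ± 0.14) and Tfap2c (0.42 ± 0.13) were higher. The Tfap2c call was lost without EV library 2 or 3 or any ddim library (adjusted p 0.0508 to 0.208), and the Krt18 call without EV library 3 (adjusted p = 0.0649) or ddim library 1 (adjusted p = 0.0635). On day 4 Tfap2c (1.19), Krt18 (0.84), Krt8 (0.80), Gata2 (0.72) and Krt7 (0.62) were higher and Tfap2a (-1.52) and Hand1 (-1.02) lower. The Hand1 call was lost without EV library 2 or ddim library 2 or 3 (adjusted p 0.0515 to 0.0894). These comparisons share the EV libraries with that of EV and WT.

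Whether EV stood differently against WT in the 2 series was tested in a joint fit of all 54 libraries, as the difference between the series in EV against WT. On day 0 it was called for 4 of 9 genes, where 19.6% of all 15371 genes were: EV stood lower relative to WT in the Suz12 series for Gata2 (-2.42 ± 0.50) and Gata3 (-2.16 ± 0.41), and higher for Eomes (1.53 ± 0.31) and Krt8 (1.30 ± 0.38). The Krt8 difference lost its call without WT library 2 of the Ezh2 series (0.93, adjusted p = 0.112). On day 1 it was called for 5 of 9 genes, where 15.6% of all genes were, lower for Gata2 (-3.71 ± 0.68), Krt7 (-2.74 ± 0.59), Tfap2c (-1.79 ± 0.22) and Krt8 (-0.72 ± 0.21) and higher for Tfap2a (0.88 ± 0.26). Without WT library 3 of the Ezh2 series the call of Krt8 was lost (adjusted p = 0.0649), and without EV library 2 of that series the call of Tfap2a (adjusted p = 0.0514). On day 4 it was called for 6 of 9 genes, where 15.2% of all genes were. EV was lower relative to WT in the Suz12 series for Tfap2c (-3.10 ± 0.27, adjusted p = 6.65e-14), Krt7 (-2.40 ± 0.24), Gata2 (-2.14 ± 0.33), Krt8 (-1.82 ± 0.17) and Krt18 (-1.51 ± 0.23), and higher for Tfap2a (1.31 ± 0.29). For Hand1 (-0.72, interval -1.41 to -0.02) and Gata3 (-0.22, interval -0.66 to 0.21) the difference did not pass the test. A called difference between the series need not mean opposite directions, since mean Gata3 on day 0 was higher in EV than in WT in both. EV of the Ezh2 series also differed from its WT by more than the returned Ezh2, as given above.

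Over the 9 groups of a series, the mean log2 CPM of Krt8 and Krt18 had a Pearson correlation of 0.996 in the Ezh2 series and 0.988 in the other. Likeness was ranked over 12170 genes tested in both series, without genes that had no symbol or a Gm-number or Rik symbol. By the lower of the 2 correlations, none of the others ranked above Krt18 in likeness to Krt8. The reverse did not hold, since Bex3 (0.992 and 0.993) and Surf4 (0.991 and 0.99) ranked above Krt8 in likeness to Krt18, where Krt8 was number 3. The nearest to Krt8 after Krt18 were Ctxn1 and Surf4, those nearest to Krt7 were Frmpd1, Prickle1 and Sct, and those nearest to Gata3 were Meis1, Tuba1a and Sox7. Gata2 and Krt7 correlated at 0.77 and 0.99 in the 2 series, and Gata3 and Krt18 at 0.94 and 0.97. Tfap2a and Hand1 ran in opposite directions in the Ezh2 series (-0.95) but not in the Suz12 series (0.07). These values describe 9 groups that share 3 lines and 3 days and do not separate a line from a day.

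Other genes of trophoblast and of keratin epithelia, in lists that were drawn up by hand, were read beside the 10. Among 14 other trophectoderm transcription factors, 5 were higher and 3 lower in EV than in WT on day 4 of the Ezh2 series, led by Dlx3 (2.98), Esx1 (2.41) and Cdx2 (2.19), and the median of the list was 1.07. Over all genes of that comparison 9.62% were higher and 8.2% lower. Cdx2, which specifies trophectoderm, was at 4.43, 5.98 and 7.09 CPM in EV on day 4 and 0.581, 1.38 and 1.83 CPM in WT, and it was also higher in EV on day 0 and day 1. Tead4, which acts above Cdx2 in the embryo, ran the other way, at 10.7, 9.6 and 9.06 CPM in EV and 17.2, 17.3 and 18.5 CPM in WT on day 4 (-0.85). Neither group reached the other for Cdx2 or Tead4. On day 4 of the Suz12 series, 1 of the 14 was higher in EV and 4 were lower, among them Sox15 (-4.61), Ascl2 (-2.10) and Tead4 (-0.90), with a list median of -0.14, where 3.85% of all genes were higher and 3.79% lower.

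Among trophoblast receptors and products, 8 of 16 tested were higher and 1 lower in EV on day 4 of the Ezh2 series, led by Ly6a (5.09), Sfmbt2 (2.60) and the placental homeobox gene Rhox9 (2.52), where 17.8% of all genes were called. Of 17 tested in the Suz12 series, 0 were higher and 6 lower, led by Tpbpa (-4.84), a marker of spongiotrophoblast, Rhox9 (-1.27) and Rhox6 (-1.04), where 7.64% of all genes were called. Rhox9 was thus called in opposite directions, at 35.2 ± 1.57 CPM in EV against 6.13 ± 1.38 CPM in WT of the Ezh2 series and 14.7 ± 2.17 CPM against 35.6 ± 3.38 CPM in the Suz12 series. Of the other keratins, 3 of 6 tested were higher in EV on day 4 of the Ezh2 series, namely Krt14 (2.07), Krt19 (0.99) and Krt20 (0.92), against the same 17.8% of all genes. In the Suz12 series 2 of 9, Krt20 (-0.73) and Krt19 (-0.34), were lower, against 7.64% of all genes. Krt19, which joins Krt7 and Krt8 in simple epithelia, rose in WT over 4 days by 6.00 log2 units in the Ezh2 series and 3.09 in the other. For amKR against WT the counts on day 4 were 1 higher of 14 other factors, 0 of 16 receptors and products and 0 of 6 keratins, where 1.71% of all genes were called. For ddim against WT they were 0 of 14 and 0 of 9, with 1 of 17 receptors and products lower, where 0.152% of all genes were called. At these shares a count of 0 or 1 says nothing particular about the lists.

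The authors' deposited tables of gene symbols, which give no value or test, name some of the 10 genes. Under the title for the knockout comparison, Gata2 and Gata3 are among 1004 symbols listed as up and Eomes among 395 listed as down on day 0. On day 1 Tfap2c, Gata2, Gata3, Hand1 and Krt7 are among 882 listed as up, and on day 4 Tfap2c, Gata2, Hand1, Krt7 and Krt8 among 543. For amKR, Krt18 is among 35 listed as down on day 0 and Hand1 among 6 on day 1. Other genes called here are not in the authors' deposited tables for that comparison and direction. They are Tfap2c and Krt8 as lower on day 0, Tfap2a as lower on day 1, and Eomes as lower and Krt18 as higher on day 4 in EV against WT. For amKR against WT they are Eomes and Krt8 as lower on day 0 and Eomes as higher on day 4.

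Genes on the opposite strand overlap Eomes, Tfap2a, Gata3, Krt7 and Krt8, and whether counting used the strand is not given in the sources used here. The highest count of any of them in a library was 17, for Gm26688 at Tfap2a, and the Krt8 pseudogene copy named in the annotation had at most 2 counts. Counts of a gene and its antisense partner cannot be told apart without strand, and the gene opposite Krt8 had at most 4 counts in a library.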

How the data were processed

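The authors deposited 54 tables of whole-number read counts per Ensembl gene ID, without normalization, and 12 lists of gene symbols without numbers (unit: other), which the authors made by a test not given in the sources used here. Reads came from QuantSeq 3′ libraries per the labels' protocols and were placed on the mm10 build per the submitters' processing notes. The aligner, counter and annotation are not given in the sources used here. Of 55487 IDs, 55141 had a symbol. Counting rows that name no gene were left out of the library sizes.

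Each series was fitted in R 4.3.3 with edgeR 4.0.16 (filterByExpr, TMM, 1 mean per group over 27 libraries, robust quasi-likelihood test, two-sided), which left 14086 and 14442 genes. Differences between series came from 1 joint fit of 54 libraries and 15371 genes. The Benjamini-Hochberg adjustment covered every gene of a fit, and a gene was called at an adjusted p under 0.05. The standard error is the size of the log2 change divided by the root of the test's F, or comes from the fitted covariance where that size was under 0.1, and intervals are 95% intervals. The call rate on simulated counts was checked before use. Alternatives were size factors of the DESeq2 kind, no filter, DESeq2 1.42.0, fits of the compared libraries alone, an offset by the chromosome's median, a replicate block and leaving out each library. Replicate numbers paired the libraries in 2 of 36 group pairs of the Ezh2 series and 0 of 36 of the other, so the block was not used. Beside the 10 genes, Cdx2, Tead4, Pou5f1, Krt19 and the PRC2 subunits could be named, and up to 3 called genes with the largest change per list and comparison described, and the 3 genes most like each of the 10. The 10 genes and all lists were chosen with earlier results of these data known.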

Additional observations from a re-analysis of the deposited data

Results flagged for a closer look

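For each value below, a difference between groups was itself tested and passed at an adjusted p under 0.05 in edgeR, and each is a difference of log2 changes. In the Ezh2 series the difference of EV from WT was not the same on day 4 as on day 0 for Tfap2c (2.23), Gata3 (-2.46), Krt8 (2.28) and Krt18 (1.30). That of amKR from WT changed between these days for Eomes (1.30). In the Suz12 series the EV difference changed for Tfap2a (1.07), Tfap2c (-1.13), Hand1 (-1.51) and Krt8 (-0.79).

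Between the series, the EV difference on day 0 was not the same for Eomes (1.53), Gata2 (-2.42), Gata3 (-2.16) and Krt8 (1.30). On day 1 this held for Tfap2a (0.88), Tfap2c (-1.79), Gata2 (-3.71), Krt7 (-2.74) and Krt8 (-0.72), and on day 4 for Tfap2a (1.31), Tfap2c (-3.10), Gata2 (-2.14), Krt7 (-2.40), Krt8 (-1.82) and Krt18 (-1.51). The change of WT over 4 days differed between the series for Eomes (-2.36), Tfap2a (-1.89), Tfap2c (4.16), Gata2 (1.32), Gata3 (-3.81), Hand1 (-4.70), Krt7 (1.31), Krt8 (-1.04) and Krt18 (-1.64).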

How the results depend on the processing

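The recomputed log2 changes were those called for the listed genes and a chosen set of uncalled ones. Uncalled changes outside that set could not be counted here as newly called. Of the 3179 recomputed values, 3036 kept their direction and their side of the threshold. A further 127 were no longer called (113 of them on leaving out a library), 4 became called and 12 changed sign. Those 12 were alternatives to 4 uncalled values: Krt8 in amKR against WT on day 4 (-0.01 without WT library 3, and -0.01 to 0.18 over all libraries left out), Eomes in ddim against WT on day 4 (0.12 without ddim library 1, range -1.33 to 0.12), Krt8 in the same comparison (0.0 with the compared libraries alone, with the chromosome offset or without ddim library 3, 0.05 without WT library 2, 0.06 without ddim library 1, range -0.08 to 0.06), and Hand1 from day 0 to day 4 in ddim (0.01 with DESeq2-type size factors, no filter or DESeq2, 0.27 without library 3 of day 0, 0.11 without library 3 of day 4, range -0.21 to 0.27). The cause was not tested.

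Among the counts of genes called in the Ezh2 series, amKR against WT went from 1 to 2 on day 1 (no filter, DESeq2) and from 1 to 0 on day 4 (no filter, compared libraries alone, chromosome offset), and the change of the amKR difference from 1 to 3 (no filter) and 2 (DESeq2). In the Suz12 series, EV against WT on day 1 went from 2 to 4 (no filter) and ddim against EV on day 0 from 2 to 1 (compared libraries alone). Leaving out single libraries gave 3 to 5 for EV against WT on day 0 in the Ezh2 series. For amKR against WT it gave 0 to 3, 0 to 1 and 0 to 0 on days 0, 1 and 4, and 0 to 1 for the change of that difference. In the Suz12 series it gave 1 to 2 for EV against WT on days 0 and 1, 2 to 4 for the change of the EV difference, and 1 to 2 and 3 to 5 for ddim against EV on days 0 and 1.

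Counts over all genes moved by more than 1.5 times for amKR against WT on day 0 (631, against 1022 by DESeq2 and 1807 with the compared libraries alone), on day 1 (230, against 501 without the filter, 473 and 671) and for the change of that difference (22, against 83, 67 and 47). With the compared libraries alone, EV against WT went from 2510 to 1515 on day 4 of the Ezh2 series and in the other from 1143 to 625 on day 1 and from 1104 to 1857 on day 4, ddim against EV from 907 to 1362 on day 1, and the change of the ddim difference from 0 to 1. For ddim against WT the count went from 9 to 61 (no filter), 14 (DESeq2) and 0 (compared libraries alone) on day 1, and from 22 to 48 and 187 (no filter, compared libraries alone) on day 4. The replicate block changed 0 of 263 log2 changes in direction or call, and EV against WT on day 4 of the Ezh2 series stayed at 7 genes called with it. Gene counts of 3801446 to 5111007 per library limit what can be said of levels that rest on few counts. Among these are Elf5, Hand1 on day 0 of the Ezh2 series and Eomes on day 4 of the Suz12 series. The same holds for Krt7 (4, 1 and 2 counts) and Gata2 (0, 1 and 3 counts) in WT on day 1 of the Ezh2 series. Comparisons with those WT libraries share this limit for both genes.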

Other observations

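Gata4 and Gata6, the GATA factors of extraembryonic endoderm and heart, were read from a list of 11 related genes, whose other genes are not given here. Both are also among the 12 extraembryonic endoderm markers read above, so that they are not separate evidence. They were higher in EV than in WT of the Ezh2 series on day 0 (2.02 and 3.28 log2 units) and day 1 (4.54 and 4.25). Over all genes, 16.8% and 13.2% were higher in EV on these days. On day 4 they did not pass the test (0.38 and -0.22), with 126 ± 32.4 CPM of Gata6 in EV against 147 ± 24.2 CPM in WT (n = 3). In amKR, Gata6 was higher than in WT on day 1 (2.61, adjusted p = 2.22e-06), at 21.2 ± 5.27 CPM against 3.46 ± 1.08 CPM, while Gata4 (-0.15) did not pass the test. In EV of the Suz12 series Gata6 was lower than in WT on day 1 (-0.52) and day 4 (-0.30).

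Of 16 epithelial junction and desmosome genes, 11 were higher and 0 lower in EV than in WT on day 4 of the Ezh2 series, led by Cldn3 (2.00), Evpl (1.61) and Perp (1.56), where 17.8% of all genes were called. In the Suz12 series 0 were higher and 4 lower, among them Cdh1 (-0.61), Cldn4 (-0.52) and Jup (-0.50), where 7.64% of all genes were called. The median of the list was 0.86 in the first and -0.16 in the second comparison.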
